A study of Cochliomyia hominivorax with 18 samples.

Results

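The transcripts described here are 86 midgut transcripts of the New World screwworm, Cochliomyia hominivorax, that stood higher in adults sampled during tetracycline rearing than in adults sampled before or after it. They were chosen from 22420 predicted transcripts by their level in CPM, which is a transcript's count scaled to a library total of 1e+06. A transcript was taken when its mean in the on-Tc adults reached 3 CPM, when the lowest on-Tc adult lay above the highest of the 6 post-Tc and control adults, and when the on-Tc mean was at least 2 times both the post-Tc and the control mean. The ratio of control adults to control larvae, with 0.1 CPM added to each mean, also had to lie between 0.25 and 4. The adult parts of the rule alone gave 117 transcripts, of which 22 had a control ratio of 4 or more and 9 a ratio of 0.25 or less.

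Midgut RNA of production flies was sequenced as 18 poly(A)-selected libraries, 3 in each of 6 groups. The groups are adults and larvae sampled during rearing with tetracycline (on-Tc), after it (post-Tc) and before it (control). No genotype, age, sex or tetracycline dose is given in the labels used here, and sampling time goes with treatment, so the effects of these cannot be told apart. Replicates 1 to 3 of a group are not described as separate flies or cages, and all p-values rest on the spread among the libraries at hand, which may be technical.

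The insect midgut digests and absorbs food and faces the gut bacteria directly. Tetracycline is an antibiotic that blocks protein synthesis on bacterial ribosomes, and the related ribosomes of mitochondria can also be affected. In transgenic male-only screwworm strains the drug in the diet keeps a conditional lethal gene switched off, and the question of the study was whether rearing with it leaves lasting effects on the gut. The deposited table identifies each transcript by a gene number and a transcript number and pairs no gene names with them. The roles of the 86 transcripts are therefore not stated, and the tissue label could not be checked against marker genes. In whole midguts, more cells of a type and more RNA per cell cannot be told apart.

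Library totals ran from 19158409 to 79783813 counts in adults and from 30221028 to 78052370 in larvae. On-Tc adults 2 and 3 had the fewest detected transcripts of the 9 adult libraries, 12955 and 13383. The 10 most abundant transcripts took 13.9% to 18.02% of counts in on-Tc adults, 23.1% to 27.0% in post-Tc adults and 17.7% to 31.8% in control adults. The part of these differences in the results was not tested.

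The 86 transcripts came from 86 different gene numbers and spanned a wide range of abundance. Their means in on-Tc adults ran from 3.05 to 5488 CPM with a median of 64.3 CPM. Of them, 6 stood under 10 CPM, 44 between 10 and 100 CPM, 28 between 100 and 1000 CPM and 8 above 1000 CPM. CPM is not corrected for transcript length, so these bands order shares of reads and not numbers of molecules. The median member mean was 19.8 CPM in post-Tc adults and 20.7 CPM in control adults. The 86 made up 1.14% of the 7519 transcripts that reached 3 CPM in on-Tc adults. For 2 members (2.33%), g214.t2 and g15981.t1, the table listed another transcript of the same gene number, against 1.13% of all transcripts at 3 CPM, and reads shared between such transcripts make their levels uncertain.

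Together the 86 transcripts took 2.62%, 2.49% and 3.59% of the counts in on-Tc adults 1, 2 and 3. They took 1.14%, 0.724% and 0.862% in post-Tc adults 1, 2 and 3, and 0.512%, 1.31% and 1.21% in control adults 1, 2 and 3. The means were 2.90% ± 0.599 in on-Tc adults, 0.910% ± 0.214 in post-Tc adults and 1.01% ± 0.436 in control adults (SD, n = 3 each). The adult groups do not overlap between on-Tc and the others because the rule required it, and control adult 1 stands well below every other library. In larvae, to which the rule applied no such demand, the 86 took 1.42%, 1.996% and 1.66% in on-Tc, 1.41%, 1.60% and 1.54% in post-Tc and 1.60%, 1.47% and 1.52% in control libraries 1, 2 and 3. The larval groups overlapped, and every larval share lay above every share of the post-Tc and control adults.

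**Figure D1:**
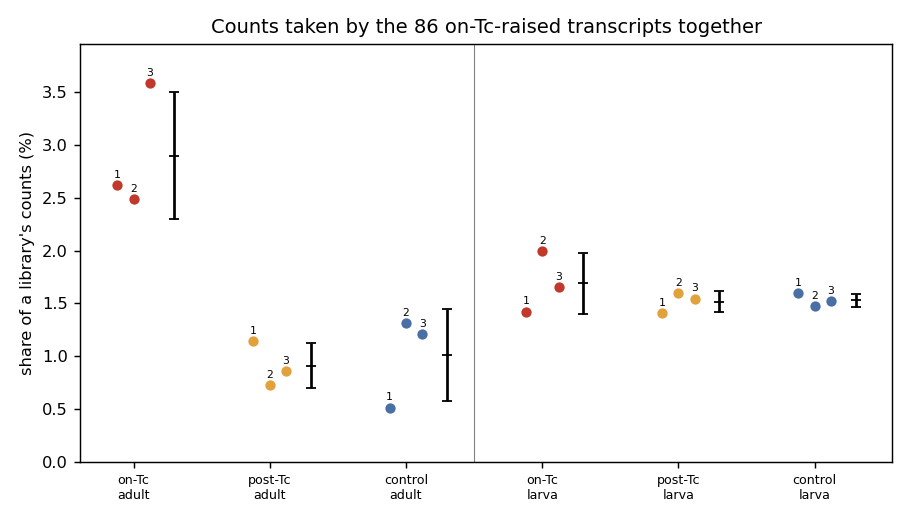
Share of each library's counts, in percent, taken by the 86 on-Tc-raised transcripts together, with library numbers beside the points and bars for mean ± SD (n = 3). On-Tc adults lie at 2.49% to 3.59%, the other adults at 0.512% to 1.31%, and all larval groups between 1.41% and 1.996%.

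Most members stood only moderately above the other adult groups. With 0.1 CPM added to each mean, the ratio of on-Tc to post-Tc adults had a median of 2.93 (range 1.97 to 91.0), and that of on-Tc to control adults a median of 2.68 (1.97 to 95.2). The smaller of both ratios reached 3 in 29 members and 5 in 17. The lowest on-Tc adult was at least 1.5 times the highest post-Tc or control adult in 34 members and at least 2 times in 10. At the 2-fold line, g3415.t1 (2.005-fold, without an added constant) and g9967.t1 (2.01-fold) lay just inside, and g10499.t1 (1.99-fold) and g9410.t1 (1.98-fold) just outside. At the 3 CPM line, g17035.t1 with 3.05 CPM and g16449.t1 with 3.58 CPM lay inside, while g1667.t1 with 2.98 CPM and g17193.t1 with 2.57 CPM lay outside.

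**Figure D2:**
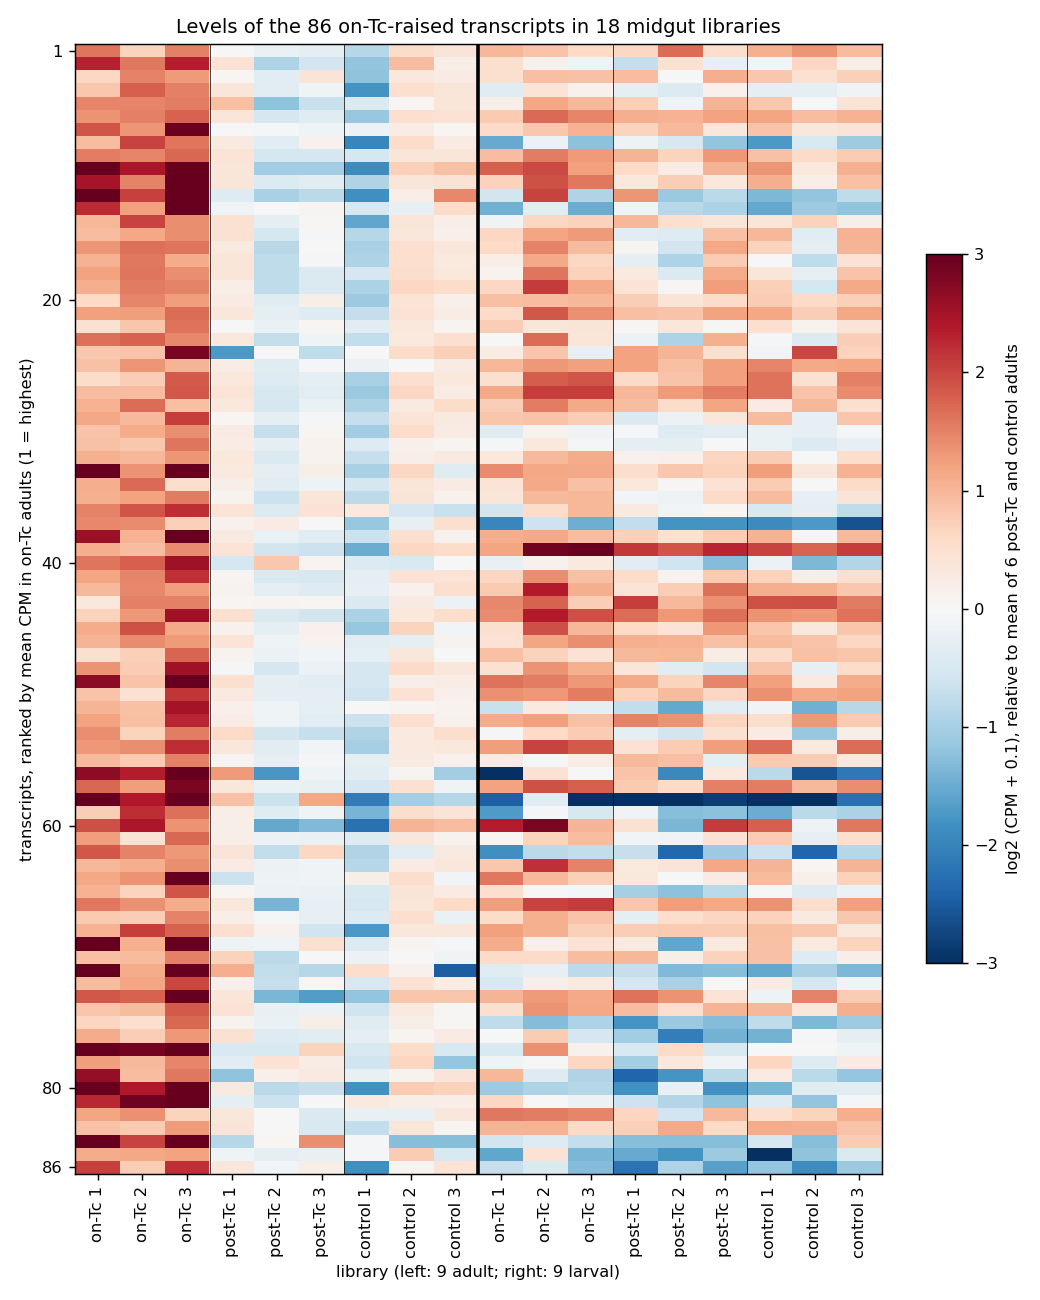
Levels of the 86 on-Tc-raised transcripts (lines, ordered by mean CPM in on-Tc adults) in the 9 adult and 9 larval libraries (columns), as log2 of CPM + 0.1 relative to the mean of the 6 post-Tc and control adults, with colours saturating at 3. On-Tc adults are red throughout, as the rule requires, control adult 1 is bluer than control adults 2 and 3 in most lines, and the larval columns hold both reds and blues.

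The most abundant member in on-Tc adults by CPM was g2173.t1. It had 6686, 3484 and 6293 CPM in on-Tc adults 1, 2 and 3, against 2178, 1911 and 1817 CPM in post-Tc adults and 1217, 3227 and 2898 CPM in control adults. On-Tc adult 2 stood only just above control adult 2, and control adult 1 was the lowest of the 9. In larvae it had 4394, 4023 and 3321 CPM in on-Tc, 3377, 7099.9 and 3194 CPM in post-Tc and 4662, 5485 and 4251 CPM in control libraries. Its larval levels overlapped those of the on-Tc adults in every treatment group.

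The second, g2178.t1, had 2899, 1758 and 3008 CPM in on-Tc adults, against 785, 305 and 395 CPM in post-Tc adults and 256, 1099.9 and 659 CPM in control adults. In contrast to g2173.t1, its larval levels stayed with those of the post-Tc and control adults. They were 815, 638 and 530.4 CPM in on-Tc, 354, 804 and 489 CPM in post-Tc and 551, 893 and 662 CPM in control larvae. The groups overlapped in larvae.

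The largest ratios belonged to transcripts near absent outside on-Tc adults, and these varied most between the on-Tc libraries. For g43.t1 the counts were 840, 22 and 791 in on-Tc adults 1, 2 and 3, against 0, 0 and 4 in post-Tc adults and 0, 6 and 0 in control adults. Its level was 10.5, 0.892 and 26.3 CPM in the on-Tc adults, and no larval library had more than 12 counts. For g807.t1 the counts were 920, 27 and 1214 in on-Tc adults, against 32, 9 and 7 in post-Tc adults and 36, 30 and 0 in control adults. Its level was 11.5, 1.09 and 40.4 CPM in on-Tc adults, and its larval counts ran from 4 to 17. In both, on-Tc adult 2 lay far below on-Tc adults 1 and 3, and for g807.t1 it lay barely above post-Tc adult 1, at 1.08 CPM. The smallest count of any member in an on-Tc adult was 22, and 6 members had under 100 counts in at least 1 on-Tc adult.

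On-Tc adults differed among themselves more for the members than for other transcripts of these libraries. The highest on-Tc adult was a median of 1.98 times the lowest over the 86 members (range 1.05 to 36.9), against 1.47 times over all 7519 transcripts at 3 CPM. The extremes are g807.t1 and g13865.t1, which had 1644, 1628 and 1708 CPM in on-Tc adults 1, 2 and 3. On-Tc adult 3 held the highest value in 61 members (70.9%, against 47.5% of the 7519), on-Tc adult 2 in 20 (23.3%, against 24.5%) and on-Tc adult 1 in 5 (5.81%, against 28.0%). All 17 members with a smaller ratio of at least 5 were highest in on-Tc adult 3, and 15 of them were lowest in on-Tc adult 2. The 20 members highest in on-Tc adult 2 had smaller ratios of 2.06 to 3.05 and a median on-Tc level of 208 CPM, against a median level of 46.3 CPM for the 61 highest in on-Tc adult 3. These shares describe transcripts chosen on the same libraries.

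Membership changed when single libraries were left out. The rule sets the lowest on-Tc adult against the highest of the 6 others, so leaving out any adult library can only loosen that part. Without on-Tc adult 2 the same rule would take 247 transcripts, 77 of the 86 among them, and without on-Tc adult 3 it would take 66, with 57 of the 86. Without control adult 2 it would take 133 and without control adult 3 it would take 134. Control adult 1 was the lowest of the 6 post-Tc and control adults in 61 members (70.9%, against 39.2% of the 7519 transcripts), and without it 59 transcripts would be taken, 53 of them members. Control adult 2 was the highest of the 6 in 42 members (48.8%, against 25.8%).

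**Figure D3:**
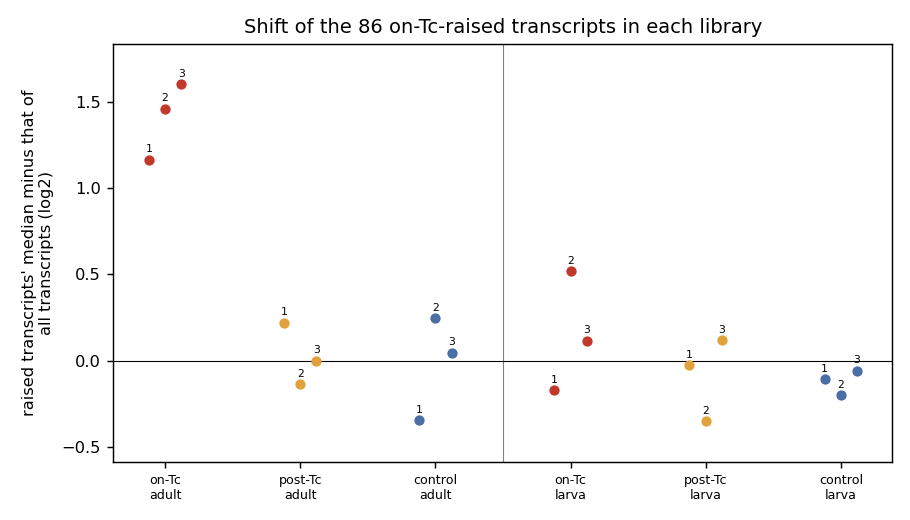
For each of the 18 libraries, the median over the 86 on-Tc-raised transcripts of log2 (CPM + 0.1) relative to a stage mean (the 6 post-Tc and control adults, or all 9 larvae), minus the same median over all transcripts with a stage mean of at least 3 CPM. On-Tc adults lie at 1.16 to 1.60, control adult 1 at -0.35 and on-Tc larva 2 at 0.52, above the other larval libraries.

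With the adult parts of the rule turned on each group, with or without its control ratio, the on-Tc adults gave the longest list. The adult parts alone took 117 transcripts (1.56% of those at 3 CPM in that group) for on-Tc adults, 25 (0.322%) for post-Tc adults and 33 (0.417%) for control adults. In larvae they took 14 (0.181%) for on-Tc, 2 (0.0265%) for post-Tc and 6 (0.0776%) for control. With the control ratio as well, 86 (1.14%) were taken for on-Tc adults, 13 (0.167%) for post-Tc adults and 17 (0.215%) for control adults. For larvae that gave 7 (0.0904%) for on-Tc, 0 for post-Tc and 1 (0.0129%) for control. The members could not be among the transcripts taken for post-Tc or control adults, by the rule, and 0 of them were among the few taken for the larval groups.

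In the contrasts that the rule used, few members passed a test across all transcripts. By edgeR's quasi-likelihood test at a false discovery rate (FDR, a p-value adjusted over all transcripts tested) of 0.05, 4 of 86 members were called higher in on-Tc than in post-Tc adults and 3 of 86 higher in on-Tc than in control adults. The background was 0.0612% and 0.0525% of 11435 transcripts, and nothing is read from these counts because the members were chosen on this contrast. The 4 against post-Tc were g9527.t1, g19080.t1, g4472.t1 and g13269.t1, and the 3 against control were g9527.t1, g5233.t1 and g17104.t1. They are named here because so few passed, after their values were seen. The only member in both, g9527.t1, had 6.02, 9.49 and 10.5 CPM in on-Tc adults, against 0.941, 0.711 and 1.18 CPM in post-Tc adults and 1.45, 1.36 and 1.36 CPM in control adults. DESeq2 called 84 and 81 members in these comparisons, within 11.4% and 9.98% of all transcripts called in either direction, and limma-voom called 6 and 2, within 0.516% and 0.201% of all called. Without on-Tc adult 1 or 3, or without any 1 library of the group compared, edgeR called 0 members in either comparison, and without on-Tc adult 2 it called 4 against post-Tc (0.109% of all transcripts called in either direction) and 7 against control (0.176%).

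The members with the highest levels did not pass. For g2173.t1 the fitted log2 change was 1.39 ± 0.35 (SE) against post-Tc adults (edgeR FDR 0.0929) and 1.24 ± 0.35 against control adults (edgeR FDR 0.124). For g2178.t1 it was 2.31 ± 0.50 against post-Tc adults (edgeR FDR 0.0766) and 2.01 ± 0.49 against control adults (edgeR FDR 0.104). Over the 86 members the median fitted log2 change was 1.49 against post-Tc and 1.51 against control adults, beside -0.06 for all transcripts in each. Both comparisons share the on-Tc libraries.

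The study compared post-Tc with control adults to ask about lasting effects, but the members cannot answer that. The rule took only transcripts at least 2 times lower in post-Tc than in on-Tc adults, so a rise kept in full after the treatment was left out beforehand. The values of both groups were used by the rule, and their comparison describes how these low levels differ. Over the 86 members the fitted log2 difference had a median of 0.01 (range -0.97 to 2.15, median SE 0.35), beside -0.03 for all 11435 transcripts. It was positive in 50 members and negative in 36, a split that library totals without scaling factors turned to 31 positive. It also turned to 30 positive without post-Tc adult 1 and 33 without control adult 1. The means of both groups lay within 1.5-fold of each other in 77 members, post-Tc adults stood more than 1.5-fold higher in 3 members and more than 1.5-fold lower in 6.

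No member was called between post-Tc and control adults by edgeR, DESeq2 or limma-voom at an FDR of 0.05. There edgeR called 0% of all transcripts, and the shares of all called by DESeq2 and limma-voom are not given here. The smallest edgeR FDR of a member was 0.688. At an unadjusted p under 0.05 edgeR had 1 of 86 members (1.16%), beside 6.56% of all transcripts. The CPM of both groups did not overlap for 1 member higher in post-Tc adults (1.16%, beside 3.98% of all) and for 3 members lower in them (3.49%, beside 6.91% of all). The 3 were g10220.t1, g187.t1 and g9527.t1, named after their values were seen. Member shares were below the background for the unadjusted p and for both counts without overlap. The rule used the values of both groups, so nothing is read from these shares.

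The 1 member with an unadjusted p under 0.05 was g17104.t1. It had 21.9, 12.3 and 72.9 CPM in on-Tc adults, 4.20, 1.40 and 5.14 CPM in post-Tc adults and 0.444, 1.05 and 1.20 CPM in control adults. The post-Tc adults lay between the on-Tc and the control adults without overlap with either, with a log2 change of 2.15 ± 0.69 (SE) over control that did not pass (edgeR FDR 0.688). With the smallest p among negative changes, g10220.t1 had 17.1, 56.2 and 33.1 CPM in post-Tc and 56.6, 82.5 and 91.9 CPM in control adults (log2 change -0.94 ± 0.61, edgeR FDR 0.80). Its on-Tc adults had 99.2, 101 and 407 CPM, with on-Tc adult 3 far above the other two.

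**Figure D4:**
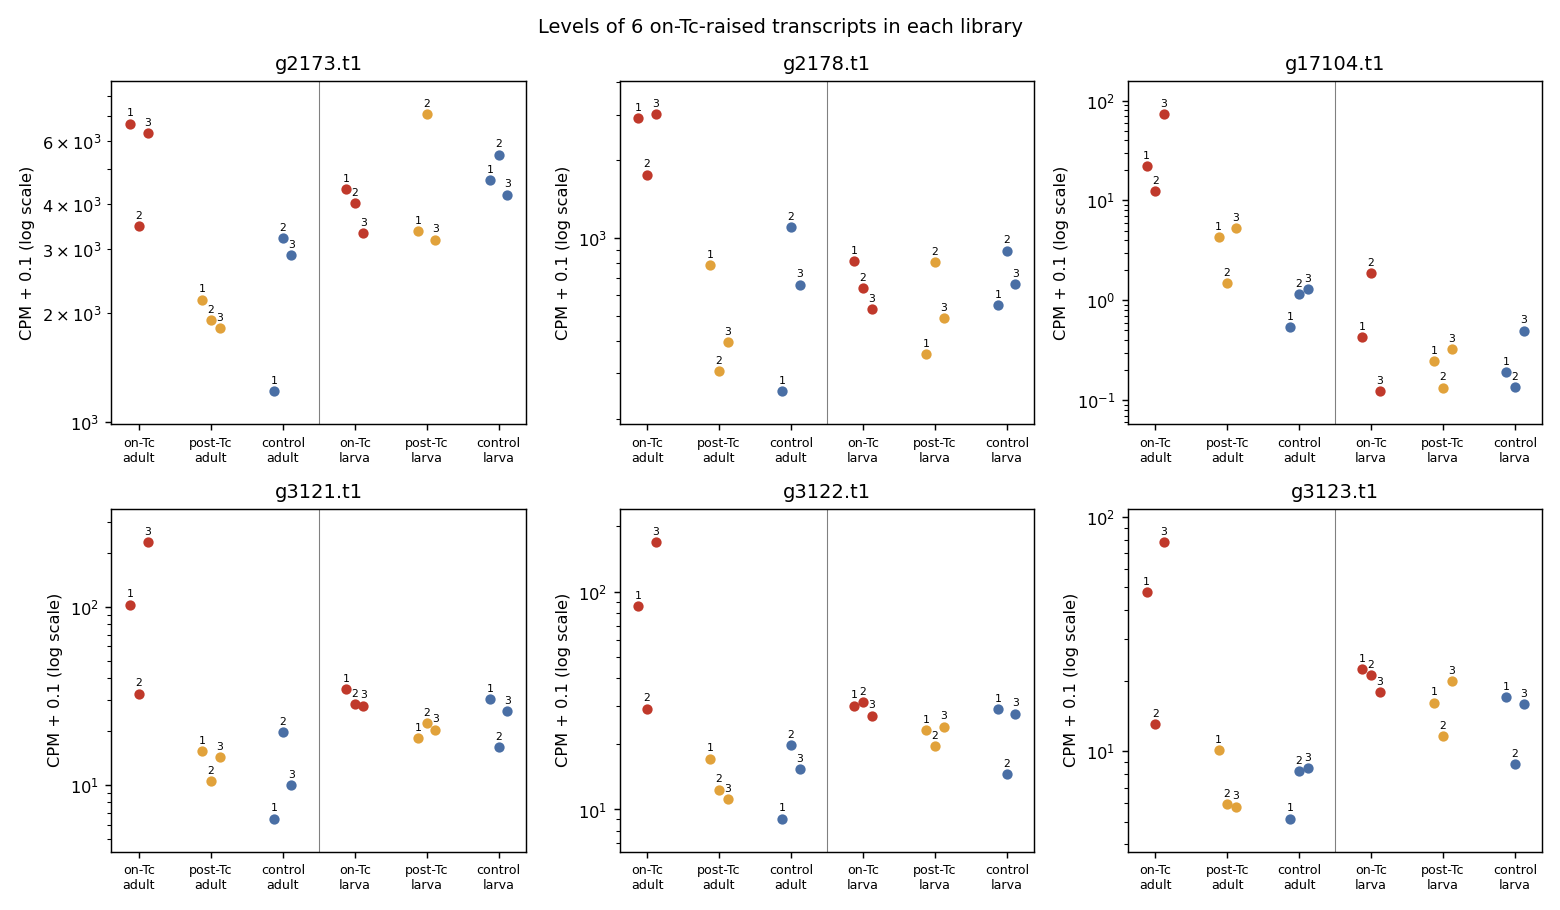
CPM + 0.1 (log scale) of 6 on-Tc-raised transcripts in each library, with library numbers beside the points, adults left and larvae right. On-Tc adults lie above the other adults in each panel, by the rule. In g17104.t1 the post-Tc adults lie between on-Tc and control adults. Larval levels overlap those of on-Tc adults in g2173.t1, and some larvae lie above on-Tc adult 2 in g3121.t1, g3122.t1 and g3123.t1.

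In larvae, where tetracycline-reared libraries took no part in the choice of members, most members had slightly positive fitted changes for the on-Tc group. Much of this came from on-Tc larva 2, and no member passed the test. Of the 86, 83 were abundant enough to test, all but g43.t1, g5824.t1 and g4888.t1. Between on-Tc and control larvae the fitted log2 change was positive in 72 of 83 members (86.7%, beside 49.1% of all 11584 transcripts tested), with a median of 0.35 (range -0.90 to 2.004), beside -0.01 for all. Between on-Tc and post-Tc larvae it was positive in 62 of 83 (74.7%, beside 50.2%), with a median of 0.27, beside 0.00 for all. Both comparisons share the on-Tc larvae. The direction of these majorities was the same under each scaling tried, from 72 to 73 members over control and from 62 to 72 over post-Tc. The numbers with covariates in the fit are not given here.

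Much of this shift sat in on-Tc larva 2. Relative to the mean of the 9 larval libraries, the members' median log2 level was 0.49 in on-Tc larva 2, beside -0.03 for all transcripts, and 77 of the 86 lay above their mean there. In on-Tc larva 1 it was -0.15, beside 0.02 for all transcripts, and 28 of the 86 lay above their mean. In on-Tc larva 3 it was 0.19, beside 0.07 for all transcripts, and 64 of the 86 lay above their mean. On-Tc larva 2 held the highest of the 9 larval values in 39 members (45.3%, beside 17.3% of the 7519 transcripts). Without on-Tc larva 2, 58 of 83 members were positive over control larvae (median 0.14, beside -0.02 for all transcripts) and 43 of 83 over post-Tc larvae (median 0.07, beside -0.03 for all). The library names also hold a digit of unstated meaning. It is 1 for on-Tc larva 2 and for all control larvae, and 2 for on-Tc larvae 1 and 3. Within the on-Tc larvae, the digit and the single library cannot be told apart.

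**Figure D5:**
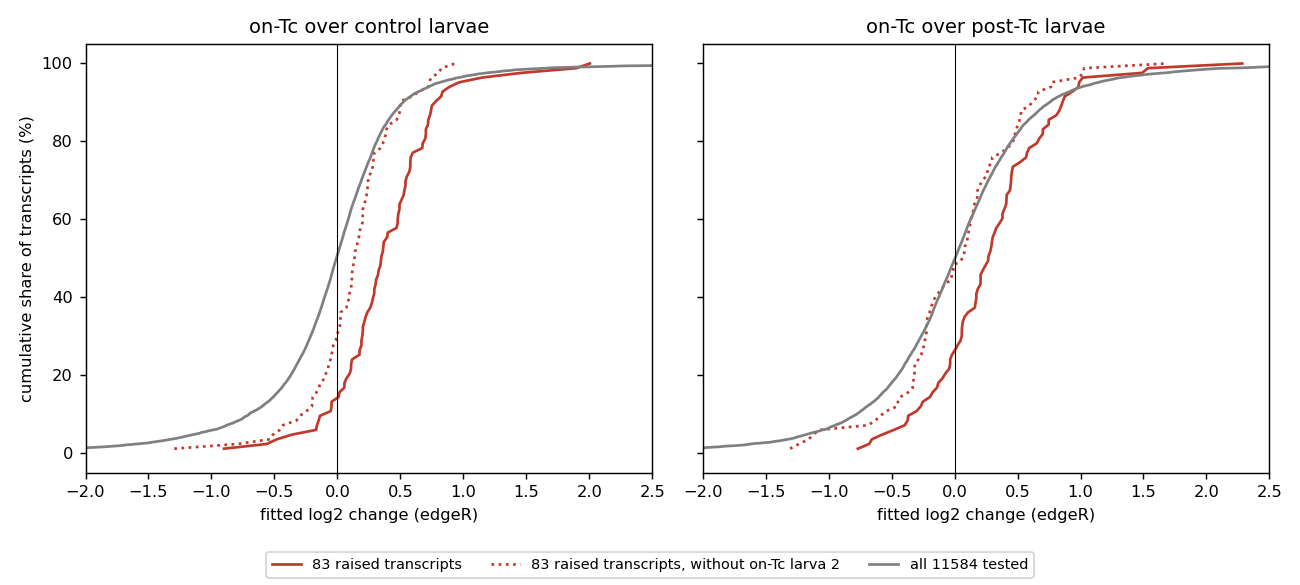
Cumulative share of transcripts, in percent, against the fitted log2 change of on-Tc over control larvae (left) and of on-Tc over post-Tc larvae (right), for the 83 on-Tc-raised transcripts tested, the same without on-Tc larva 2, and all 11584 transcripts tested. Except at its upper end, the members' curve lies right of that of all transcripts, with medians of 0.35 and 0.27, and moves towards it without on-Tc larva 2, with medians of 0.14 and 0.07.

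For on-Tc against control larvae, edgeR called 0 members and 0% of all transcripts at an FDR of 0.05. DESeq2 and limma-voom also called 0 members, but their shares of all transcripts called are not given here, so nothing is read from that. By edgeR at an unadjusted p under 0.05, 3 of 83 members were higher (3.61%, beside 0.975% of all) and none lower. They were g9610.t1, g5039.t1 and g11127.t1. The on-Tc larvae lay above all control larvae in 6 of 83 members (7.23%, beside 3.25% of all). With the smallest p, g9610.t1 had 20.6, 35.3 and 37.0 CPM in on-Tc larvae and 21.9, 12.3 and 20.3 CPM in control larvae (log2 change 0.74 ± 0.28, edgeR FDR 0.999). On-Tc larva 1 overlapped the control larvae.

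For on-Tc against post-Tc larvae, edgeR again called 0 members and 0% of all. DESeq2 and limma-voom called 0 members too, again without their shares of all transcripts given here, so nothing is read from that. By edgeR at an unadjusted p under 0.05, 8 of 83 were higher (9.64%, beside 2.31% of all) and none lower. In CPM, 16 of 83 did not overlap upwards (19.3%, beside 8.62% of all). With the smallest p, g16141.t1 had 13.9, 9.60 and 9.34 CPM in on-Tc larvae, against 4.79, 4.08 and 5.48 CPM in post-Tc larvae (log2 change 0.99 ± 0.26, edgeR FDR 0.811). Its control larvae had 9.84, 7.40 and 8.55 CPM, which overlapped the on-Tc larvae and lay above all post-Tc larvae.

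The adult pattern was rare in larvae among all transcripts. Of 7742 transcripts at 3 CPM in on-Tc larvae, 14 (0.181%) had all on-Tc larvae above all other larvae and 2-fold higher means than both groups, and 0 of the 77 members at that level were among them, a count that cannot be told from that background. The ratio of on-Tc to control larvae had a median of 1.29 over the 86 members and reached 1.5 in 24.

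For post-Tc against control larvae, the fitted change was positive in 50 of 83 members (median 0.11, beside -0.01 for all), and in 36 of 83 by library totals without scaling factors. Called by edgeR, DESeq2 or limma-voom were 0 members, and edgeR called 0% of all transcripts. For DESeq2 and limma-voom the shares of all transcripts called are not given here. At an unadjusted p under 0.05, edgeR had 0 of 83 members higher (beside 1.01% of all) and 1 lower (1.20%, beside 1.37% of all), which was g16141.t1 with a log2 change of -0.69 ± 0.26 (edgeR FDR 0.9998). With the smallest p among positive changes, g1893.t1 had 6.36, 0.832 and 4.29 CPM in post-Tc and 1.95, 0.491 and 0.705 CPM in control larvae, which overlapped.

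The on-Tc effect was larger in adults than in larvae for the fitted values of all 86 members, with a median difference of 1.22 on the log2 scale, beside -0.02 for all 12599 transcripts. The adult side of this difference was fixed by the rule, so it is a description. By edgeR the difference was called for 0 members and 0% of all transcripts at an FDR of 0.05 (smallest member FDR 0.446). At an unadjusted p under 0.05 it was positive in 54 of 86 members, 62.8%, beside 2.84% of all. DESeq2 called 7 members, beside 0.381% of all transcripts called in either direction, and limma-voom called 0 members and 0% of all.

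By CPM, 1 member had all on-Tc larvae below all control larvae, while its on-Tc adults lay above all control adults, as the rule required of every member. The share of all transcripts with such a larval order was not computed, so nothing is read from this count. Of the 83 tested, 11 had a negative fitted change over control larvae. For g13269.t1, on-Tc adults had 33.0, 29.0 and 48.0 CPM, against 17.8, 13.99 and 16.1 CPM in post-Tc and 13.7, 20.3 and 18.3 CPM in control adults. On-Tc larvae had 19.8, 15.97 and 19.5 CPM, against 32.8, 31.2 and 13.8 CPM in post-Tc and 28.6, 28.4 and 20.9 CPM in control larvae. All on-Tc larvae lay below all control larvae, and post-Tc larva 3 lay below the on-Tc larvae. The larval difference did not pass over control (log2 change -0.56 ± 0.32, edgeR FDR 0.999) or over post-Tc (-0.68 ± 0.32, edgeR FDR 0.811).

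Set against the larval libraries, on-Tc adults were not outside the larval range for most members. The 3 on-Tc adults lay above all 9 larval libraries in 32 members and overlapped them in 54, and were below all of them in none. These counts are partly set by the rule, which chose high on-Tc adult values and bounded the ratio of control adults to control larvae. The same shares over all transcripts were not computed, so the counts are a description only. The mean of control larvae lay between the means of control and on-Tc adults in 53 members, above the on-Tc adult mean in 6 and below the control adult mean in 27. Larval levels were under 1 CPM in all 9 libraries for 5 members, g43.t1, g807.t1, g5824.t1, g4888.t1 and g17035.t1, which are listed after their values were seen. The highest larval levels by CPM belonged to g2173.t1 and g7099.t1. On-Tc larvae had 1429, 1930.4 and 1881 CPM of g7099.t1, post-Tc larvae 1949, 1041 and 2179 CPM and control larvae 1807, 1410.0 and 1683 CPM, which overlapped throughout.

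The stage difference in post-Tc flies was fitted, although the rule bounded the same ratio in control flies. That bound left out 22 transcripts with a control ratio of 4 or more and 9 with a ratio of 0.25 or less. Large stage differences were thus partly removed beforehand from the members but not from the background, so the shares below are a description. Since the rule also asked for low levels in post-Tc adults, a lean towards larvae is partly built in. Post-Tc adults were below post-Tc larvae in 60 of 86 members and above them in 26, with a median log2 difference of -0.57, beside -0.04 for all 12599 transcripts. By edgeR at an FDR of 0.05, 20 members were lower in adults (23.3%, beside 14.9% of all) and 8 higher (9.30%, beside 15.8% of all). Over both directions the 28 calls stood beside 30.7% of all transcripts. They became 16 without post-Tc adult 2 (beside 21.3% of all), 14 without post-Tc adult 3 (19.9%) and 17 without post-Tc larva 1 (22.2%).

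The 2 lower members with the smallest p were g9273.t1, with 106, 71.3 and 89.8 CPM in post-Tc adults and 211, 171 and 215 CPM in post-Tc larvae (log2 difference -1.20 ± 0.21, edgeR FDR 0.000694), and g3415.t1. For g3415.t1 the levels were 51.6, 26.6 and 25.1 CPM in post-Tc adults and 170.5, 145 and 191 CPM in post-Tc larvae (-2.35 ± 0.47, edgeR FDR 0.00193). Of the higher members, g14244.t1 had 8.60, 6.88 and 8.96 CPM in post-Tc adults and 2.26, 3.64 and 3.16 CPM in post-Tc larvae (1.42 ± 0.27, edgeR FDR 0.00126). The second, g17104.t1, had 0.145, 0.0340 and 0.226 CPM in post-Tc larvae, under its post-Tc adult levels of 1.40 to 5.14 CPM (4.75 ± 1.22, edgeR FDR 0.00913).

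Some members carried neighbouring gene numbers. Of the 86, 7 had a member at the next gene number, in 3 runs, which were g3034.t1 with g3035.t1, g3121.t1 to g3123.t1, and g9966.t1 with g9967.t1. How often this happens in other sets of transcripts is not given here, so nothing is read from this count. The members of each run also stood on consecutive rows of the table, but whether the numbers follow the order of genes on chromosomes is not given in the sources used here. Near-identical copies could share reads, which makes the levels of such neighbours uncertain.

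The run of 3 had much the same profile in each member. In on-Tc adults 1, 2 and 3 the levels were 103, 32.5 and 232 CPM for g3121.t1, 85.6, 29.0 and 169 CPM for g3122.t1 and 47.8, 12.98 and 78.1 CPM for g3123.t1, which was added after its values were seen. Post-Tc adults had 15.5, 10.4 and 14.2 CPM of g3121.t1, and control adults 6.40, 19.7 and 9.87 CPM. For g3122.t1, post-Tc adults had 17.04, 12.2 and 11.1 CPM and control adults 8.98, 19.7 and 15.2 CPM. In each of the 3, on-Tc adult 3 was highest and on-Tc adult 2 lowest of the on-Tc adults. The larval levels of g3121.t1 were 34.3, 28.3 and 27.8 CPM in on-Tc, 18.3, 22.3 and 20.4 CPM in post-Tc and 30.1, 16.2 and 26.0 CPM in control libraries. All lay under the levels of on-Tc adults 1 and 3, but on-Tc larva 1 lay above on-Tc adult 2.

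The on-Tc adults stood in the same order in the run of g3034.t1 and g3035.t1. On-Tc adults had 649, 270.4 and 1901 CPM of g3035.t1, against 63.4, 23.8 and 24.0 CPM in post-Tc adults and 13.3, 80.9 and 90.8 CPM in control adults. They had 7.97, 7.46 and 35.5 CPM of g3034.t1, against 2.76, 0.762 and 0.591 CPM in post-Tc and 0.869, 3.88 and 3.86 CPM in control adults. In both, on-Tc adult 3 was the highest of the 9 adults, and on-Tc adults 1 and 2 were nearly equal for g3034.t1. The run of g9966.t1 and g9967.t1 had smaller ratios of 2.24 and 1.97, near the rule's fold line.

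Transcripts numbered next to a member also leaned upwards. Of 125 tested non-members 1 gene number away, 74 (59.2%) had positive fitted changes of on-Tc over both post-Tc and control adults, beside 35.0% of all non-members tested, and 12 (9.60%) were at least 2-fold higher in both, beside 2.53%. Up to 5 numbers away the shares were 42.0% and 5.97% of 536 transcripts. These are counts over transcripts that share the same libraries, with no test.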

How the data were processed

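Per the labels' protocols, gut RNA was isolated with a Direct-zol kit and made into poly(A)-selected NEBNext libraries, 18 in all. The authors deposited 1 table of raw counts for them, as its whole numbers and unequal column sums show. The submitters' processing notes list Trimmomatic, STAR, featureCounts and DESeq2, with neither version nor role. For build, annotation, strand setting and the counting of read pairs, nothing is given in the sources used here. Each column was tied to a sample by its library name, and the titles gave group and replicate number.

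The members, comparisons and alternatives were chosen with earlier results of these data known. Members were chosen on CPM from column totals. Fitted log2 changes came from edgeR 4.0.16 in R 4.3.3 (filterByExpr with a minimum count of 10 and total of 15, TMM scaling, quasi-likelihood F-test, Benjamini-Hochberg adjustment over all transcripts tested, FDR under 0.05). Comparisons of treatments were fitted on the 9 adult or the 9 larval libraries, and the stage difference and the adult-minus-larval difference used all 18. SEs were derived from the F statistic. The steps were tested on simulated data. The alternatives tried include DESeq2 1.42.0, voom from limma 3.58.1, other scalings and filters, covariates, other thresholds of the rule, and leaving out each library. Halved counts, and counts of positive changes under each alternative, were added after the data were seen.

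Members named are the 2 highest in on-Tc adults and in larvae, the 2 with the largest smaller ratio, those nearest the rule's lines, 2 of the longest run of gene numbers, and per test the members with the smallest p in each direction (2 where called, otherwise 1). Others are named outside this rule with the data known, and not all of them carry a remark. Groups of 3 against 3 allow no exact p below 0.1. Figures were drawn with matplotlib 3.10.9.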

Additional observations from a re-analysis of the deposited data

Results flagged for a closer look

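For g13269.t1, all 3 on-Tc adults lay above the control adults while all 3 on-Tc larvae lay below the control larvae, with a larval log2 change of -0.56 (edgeR FDR 0.999). The fitted adult change over control was 1.104 on the log2 scale (edgeR FDR 0.0594), and its sign was set by the choice of members. The opposite directions were not tested for being chosen out of 86 members, and the share of all transcripts with such a larval order was not computed. The fitted difference between the adult and the larval change was 1.67 ± 0.38 (SE), which did not pass over all transcripts (edgeR FDR 0.4996). Groups of 3 libraries were too small to look for single outlying samples.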

How the results depend on the processing

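The number of members called higher in on-Tc adults changed with many of the choices tried. Against control adults it was 3 by edgeR, 81 by DESeq2, 16 with all 18 libraries in the fit, and 0 with library totals without scaling factors, with the replicate block or with a digit of unstated meaning in the library names as a covariate. Against post-Tc adults it was 4 by edgeR, 84 by DESeq2, 9 with all 18 libraries, 7 with a filter of 1 CPM in 3 libraries, 7 with halved counts, 1 with no filter, 1 with library totals, and 0 with the replicate block or the digit. Leaving out 1 library gave 0 to 7 against control and 0 to 4 against post-Tc. Replicate numbers were shared between groups, and the labels do not say whether they pair the libraries. Of 18 same-numbered pairs, 4 deviated together with a correlation above 0.1 (range -0.50 to 0.43). The main fits therefore treated the libraries as unpaired, which remains unknown, and the block is given only here.

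Calls of members were 0 under every alternative run for post-Tc against control adults and for the 3 larval comparisons, leaving out each library included. The shares of all transcripts called under each alternative are not given here, so nothing is read from these 0 calls. The adult-minus-larval difference had 7 calls by DESeq2 and 0 otherwise. The 28 calls between stages in post-Tc flies ran from 14 to 28 without 1 library. The rule took 29 transcripts at 3-fold, 112 on TMM-scaled CPM (84 of the 86 among them), and 59 to 247 without 1 library. The adult pattern in larvae held 1 member at 1.5-fold and 0 to 1 without 1 library. Positive changes numbered 58 to 72 of 83 for on-Tc over control larvae and 43 to 67 for on-Tc over post-Tc larvae without 1 library. For post-Tc over control adults they numbered 31 with library totals, a scaling that moved the median of all transcripts to -0.14 from -0.03 (in larvae to -0.15 for post-Tc over control and 0.19 for on-Tc over post-Tc), and 30 to 67 without 1 library. Of the named larval values, g2173.t1 in on-Tc over control larvae turned to 0.0218 with the digit covariate, and g7099.t1 (0.06) turned to -0.15 with it and to -0.0694 without on-Tc larva 2 (highest without 1 library 0.226). The cause was not tested. For the other named values, 414 recomputed values kept their direction and their side of the threshold, and 25 passed the threshold in the alternative where the reported value had not.

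Depth limits the lowest members: 6 had under 100 counts in an on-Tc adult, and intervals on counts would cover counting error only.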
